A study of Mus musculus with 6 samples.

Results

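The Indian hedgehog to COUP-TFII genes are 9 genes that carry a signal from the uterine epithelium to the stroma beneath it: Ihh, Ptch1, Smo, Sufu, Hhip, Gli1, Gli2, Gli3 and Nr2f2. They were taken as every probe whose gene symbol in the array files is one of these names, which gave 20 of 45281 probes and 9 of 28893 gene names. RNA of luminal uterine epithelium was measured at 3.5 days post coitum on 6 arrays of 1 Illumina mouse bead chip. Of these, 3 arrays (A, B and C) carried Control samples, whose alleles the labels do not list, and 3 (D, E and F) carried the conditional knockout of Alk3, here CKO. The CKO females were Alk3flox/flox Pgrcre/+, so the floxed part of the BMP receptor gene Alk3 (Bmpr1a) is removed wherever the progesterone receptor locus drives Cre. That driver is active in uterine stroma and muscle as well as in epithelium, and it uses up 1 copy of Pgr. All mice had a hybrid C57BL/6J and 129S5/SvEvBrd background; ages and the method of isolating the epithelium are not given in the sources used here. Nothing says that the arrays came from separate animals, and a p-value then reflects only how much these samples vary, which may be technical. Control filled 3 neighbouring positions of the chip and CKO the rest, so chip position cannot be told apart from genotype.

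In the mouse uterus, progesterone acting through its receptor turns on Ihh in the epithelium. The secreted protein binds Patched 1 on stromal cells, which releases Smoothened and lets the GLI factors act. In the stroma the signal leads to Nr2f2, which encodes the nuclear receptor COUP-TFII, and from there to Bmp2 and decidualisation. Ptch1, Gli1 and Hhip are themselves turned on by the signal and serve as its usual readouts. The ligand is thus an epithelial product, while the responders are known mainly from stroma.

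The gene starts of the ligand, of its receptor and of the last gene of the chain are shown because the results turn on these 3 genes. Each is the 250 bases before the start of the gene in RefSeq, build GRCm38.p6, written 5′ to 3′. Ihh lies on the minus strand at chr1:74951673-74951922, Ptch1 on the minus strand at chr13:63565736-63565985 and Nr2f2 on the minus strand at chr7:70366747-70366996. Capitals mark the GC box GGGCGG on either strand, the letters bound by SP and Kruppel-like factors.
Ihh: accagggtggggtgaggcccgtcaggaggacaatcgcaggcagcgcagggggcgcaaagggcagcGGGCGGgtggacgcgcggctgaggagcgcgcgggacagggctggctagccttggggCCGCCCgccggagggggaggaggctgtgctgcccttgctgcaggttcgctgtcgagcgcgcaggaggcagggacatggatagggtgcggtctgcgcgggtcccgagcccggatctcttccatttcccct
Ptch1: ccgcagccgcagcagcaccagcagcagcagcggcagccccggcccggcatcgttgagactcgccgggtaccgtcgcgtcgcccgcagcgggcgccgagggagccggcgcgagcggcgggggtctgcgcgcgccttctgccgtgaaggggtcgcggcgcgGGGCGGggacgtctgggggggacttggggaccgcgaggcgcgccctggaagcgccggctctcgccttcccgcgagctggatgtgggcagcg
Nr2f2: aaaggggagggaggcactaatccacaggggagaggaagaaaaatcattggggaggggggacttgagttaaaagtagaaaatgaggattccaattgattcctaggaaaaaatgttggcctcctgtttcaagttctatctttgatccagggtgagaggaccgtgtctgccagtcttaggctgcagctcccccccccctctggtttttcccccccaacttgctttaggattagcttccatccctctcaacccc

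The stretch before Ihh held 2 GC boxes, at 185 and 129 bases before the start, that before Ptch1 held 1, at 91 bases, and that before Nr2f2 held 0. Over all 32851 promoters of the same length, 32.7% held at least 1. Their base composition differed too, with 72% G and C for Ihh, 78.4% for Ptch1 and 50% for Nr2f2. The GLI motif GACCACCCA, searched on both strands, was in 0 of the 8 members' promoters that matched and in 0.225% of all promoters. Its inner part CCACCCA, which the longer motif contains, was also in 0 of the 8, against 8.11% of all. The half-site TGTTCT of steroid receptors was in that of Sufu, 174 bases before the start, and in 16.1% of all. These are descriptions of letters in a short window and say nothing of where the factors bind. The member without a match was Gli1.

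The 6 arrays had median raw signals of 79.7 to 87.6, 16620 to 17536 probes above background (detection p-value under 0.05) and medians of 39 to 42 beads per probe. The number of arrays limits the precision. By limma's adjusted p, CKO was higher than Control for 2 of 11940 genes tested and lower for 0, and 563 genes had an unadjusted p under 0.05. CKO array E stood apart, with a mean correlation of 0.936 with the other arrays against 0.953 to 0.970 for the rest. Bmpr1a, the targeted gene, had by its brighter probe log2 signals of 9.26, 9.35 and 8.97 on Control and 8.86, 8.25 and 8.67 on CKO. The groups did not overlap, with a difference of -0.60 (SE 0.22, adjusted p 0.976). Whether that probe lies in the deleted part is not known here, so it does not check the deletion. Of 9 pan-epithelial markers, 8 (all but Epcam, which has 1 probe) were above background on all 6 arrays.

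Of the 9 members, 5 were above background on enough arrays to be tested (at least 3 of the 6): Ihh, Ptch1, Smo, Sufu and Nr2f2. The other 4, Gli1, Gli2, Gli3 and Hhip, were not, so they were left out of limma's main test. Among the 20 probes, 8 were above background on all 6 arrays, 9 on none and 3 on some. By limma's adjusted p, 0 of the 5 tested members were higher in CKO, where 0.0168% of all genes were, and 0 were lower, where 0% of all genes were. The groups failed to overlap with CKO above for 1 of the 5 (Ihh), against 5.64% of all genes, and with CKO below for 0, against 5.01%. With so few members these shares cannot be told from the background. Of the 5, 3 differences were positive and 2 negative. Their median was 0.043 on the log2 scale, against -0.011 over all genes tested.

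**Figure D1:**
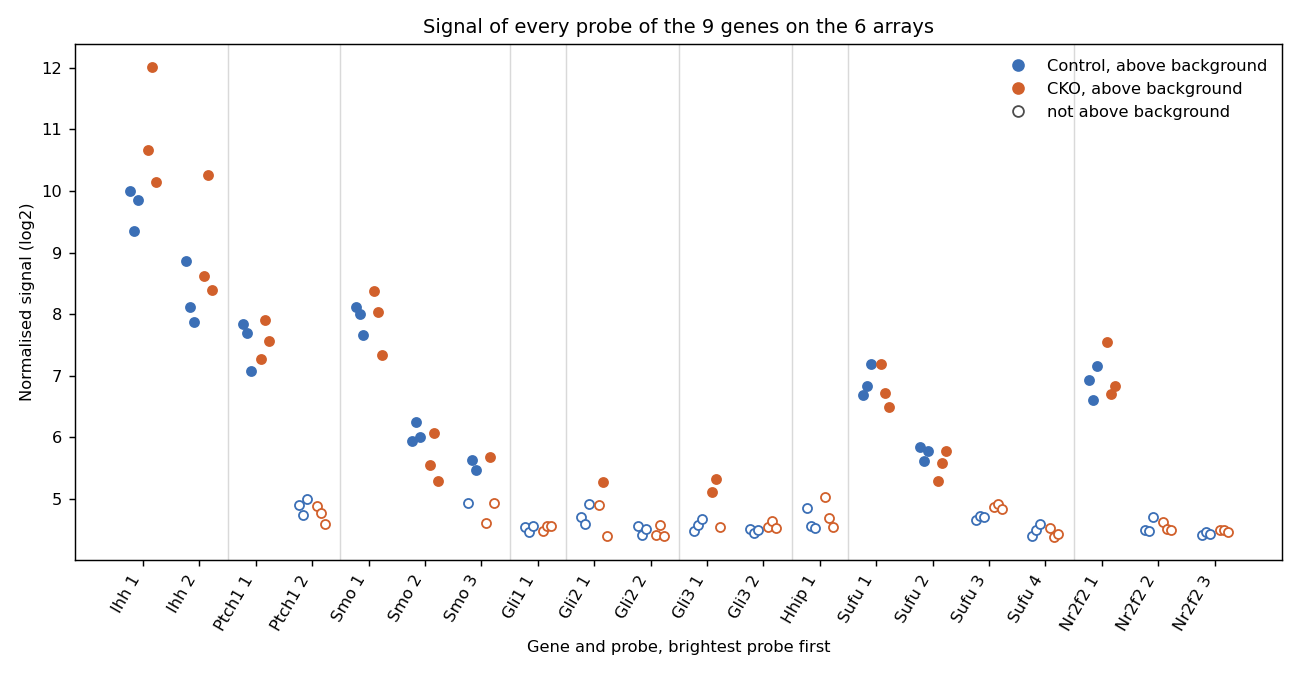
Normalised log2 signal (vertical axis) of each of the 20 probes of the 9 genes (horizontal axis, brightest probe of a gene first) on the 3 Control and 3 CKO arrays; open points are not above background. Ihh is the gene whose CKO arrays all lie above its Control arrays by its main probe, and the probes of Gli1 and Hhip are open on every array.

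Ihh, the ligand, was the member with the largest difference between the groups. Its brighter probe gave normalised log2 signals of 9.99, 9.35 and 9.85 on Control arrays A, B and C, and 10.66, 12.01 and 10.15 on CKO arrays D, E and F. Every CKO array lay above every Control array, but F exceeded A narrowly, and E lay far above all others. The means were 9.73 ± 0.34 (SD, n = 3) in Control and 10.94 ± 0.96 (SD, n = 3) in CKO. The difference was 1.20 (SE 0.48, 95% confidence interval 0.059 to 2.35), which is 2.30-fold, and 1.27% of all genes had a larger one in size. Its adjusted p was 0.976 (unadjusted 0.042), so Ihh did not pass the test. An exact two-sided permutation test gave 0.1, the smallest that 3 against 3 arrays allow.

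The dimmer Ihh probe, also above background on each array, gave 8.87, 8.12 and 7.87 on Control and 8.61, 10.27 and 8.39 on CKO. Control A exceeded both D and F here, and the groups were not separated. The difference was 0.80, with an exact permutation p of 0.3. Across the 6 arrays the probes had a Pearson correlation of 0.91, and both had array E highest. They differed in the order of the rest: array A ranked behind D and F by the brighter probe and in front of them by the dimmer one.

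In raw signal, which is linear and not normalised, the brighter Ihh probe read 1167 on A, 770.2 on B, 963.8 on C, 1545 on D, 4116 on E and 1126 on F. On this scale F lay below A, so the separation of the groups came only after normalisation. Array E read 2.67 times the next array, D. The standard error over the beads was 146 on E and 61.1 on D; it covers the reading of the beads and not the variation between samples or arrays. The dimmer probe read 1267 on E and 572.1 on A, the next array, a ratio of 2.21.

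**Figure D2:**
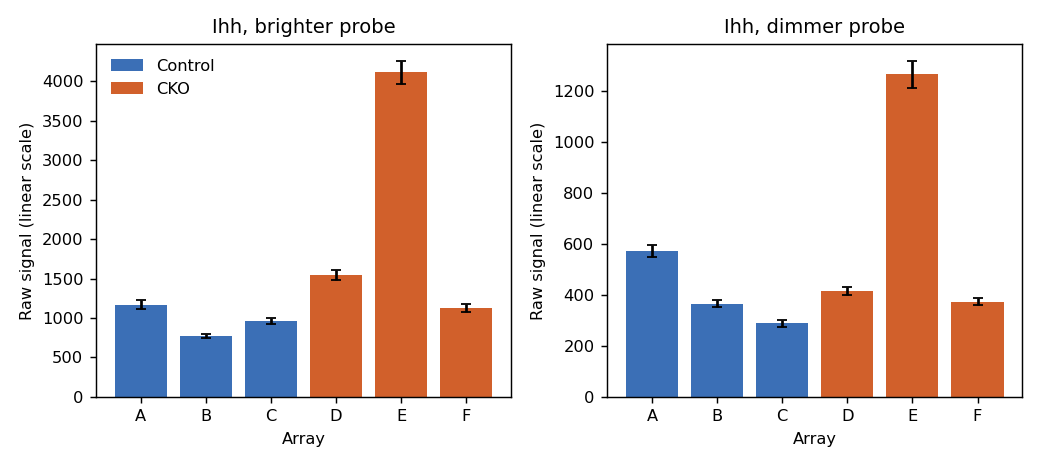
Raw signal on a linear scale (vertical axes) of the brighter and the dimmer Ihh probe on each array (horizontal axes), Control in blue and CKO in orange; bars show the signal and whiskers the standard error over beads. Array E stands at 4116 and 1267, above every other array, and A exceeds F in both panels.

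A single array carried much of the Ihh difference. Without E it was 0.68 (SE 0.28, adjusted p 0.971), and without F it was 1.60 (SE 0.45, adjusted p 0.832). Leaving out A, B, C or D gave 1.01 to 1.35. Over all 17 alternatives the difference stayed positive and did not pass, with adjusted p of at least 0.364. Adjusted for the stroma markers' mean it was 0.77 (SE 0.44). Glandular epithelium also makes Ihh. The summed signal of 4 measured glandular markers of 6 ran from 402 to 5020 in Control and from 493 to 5468 in CKO, with E highest and A next. Foxa2, their defining factor, was not among the measured ones. The 3 measured luminal markers had the same order, with summed signals of 12877 on E and 10847 on A. Cxcl15, a gland marker, was instead highest on Control B, at 9.15 against 6.90 on E. Array E was thus high for Ihh and for the summed gland and luminal markers. The part of either in the Ihh value was not tested.

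**Figure D3:**
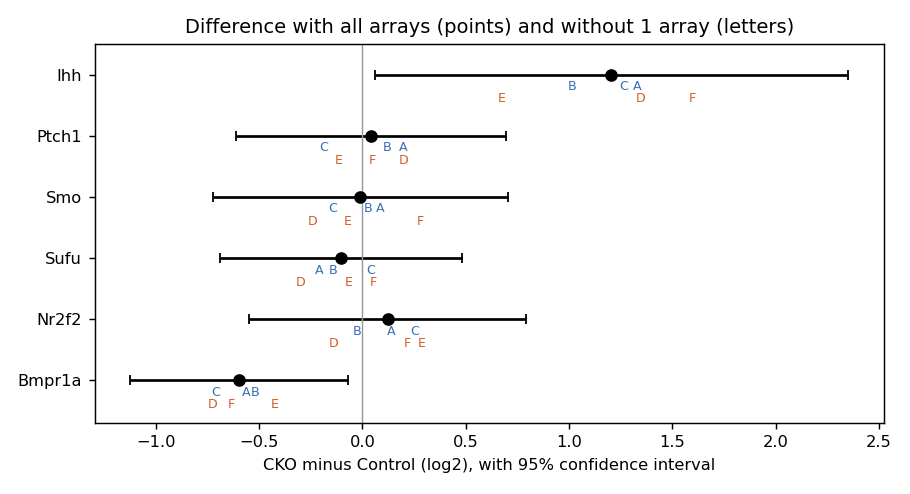
Difference of CKO minus Control on the log2 scale (horizontal axis) for the 5 tested members and Bmpr1a, with points and 95% confidence intervals from all arrays and letters for the value without that array. Ihh runs from 0.68 without E to 1.60 without F, and the letters of Ptch1, Smo, Sufu and Nr2f2 fall on both sides of 0.

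Ptch1, the receptor that holds the pathway off until hedgehog binds and is itself a target, had groups that overlapped. Its main probe gave 7.84, 7.69 and 7.07 on Control and 7.27, 7.90 and 7.57 on CKO. Values ran from 7.07 on Control C to 7.90 on CKO E. The means were 7.53 ± 0.41 (SD, n = 3) and 7.58 ± 0.31 (SD, n = 3), a difference of 0.043 (SE 0.27, 95% confidence interval -0.61 to 0.70, adjusted p 0.985). On array D, where Ihh was second highest, Ptch1 was second lowest. The interval allows changes of either sign, so equal levels were not shown. The other Ptch1 probe was above background on no array.

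Smo, the transducer that Patched 1 restrains, also had groups that overlapped. Its brightest probe gave 8.11, 7.995 and 7.65 on Control and 8.37, 8.04 and 7.33 on CKO, so the CKO arrays held both the highest and the lowest value. The difference was -0.010 (SE 0.30, 95% confidence interval -0.72 to 0.70, adjusted p 0.996). A second probe, above background on all arrays, differed by -0.43 with an exact permutation p of 0.3. The third, above background on 3 arrays, differed by -0.27. Neither followed the brightest probe closely across the arrays, with correlations of 0.35 for the second and -0.18 for the third. The Smo difference was -0.24 with the mean of the probes, -0.46 with array weights and -0.28 with the stroma covariate, and it did not pass in any of them.

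Sufu, the cytoplasmic inhibitor that holds the GLI factors back, gave 6.69, 6.83 and 7.19 on Control and 7.19, 6.72 and 6.49 on CKO by its brightest probe. The means were 6.90 ± 0.26 (SD, n = 3) and 6.80 ± 0.36 (SD, n = 3), a difference of -0.10 (SE 0.24, 95% confidence interval -0.69 to 0.48, adjusted p 0.977). Its second probe differed by -0.19, again with overlap. The remaining 2 Sufu probes were above background on no array.

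Hhip, a membrane protein that binds and traps hedgehog ligands and a target of the signal, had 1 probe, not above background on any array. Its raw signal ran from 74.2 on F to 90.7 on A, with Control and CKO mixed. The GLI factors, which turn the signal into transcription, were also at or near background. Gli1, the most direct readout, read 72.3 to 78.8 in raw signal on its 1 probe and was above background on no array. The brighter Gli2 probe was above background on array E alone, at 100.1 in raw signal. The brighter Gli3 probe was above background on D at 90.5 (detection p 0.047) and on E at 101.6. It was so on no Control array, where it read 75.5, 83 and 81.4, and not on CKO F, at 74.3. Its groups overlapped, with an exact permutation p of 0.3. The second probes of Gli2 and Gli3 were above background on no array. For these 4 genes the arrays set no level, and a response of low abundance was not detectable.

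Nr2f2, the last gene of the chain, was seen by 1 of its 3 probes, while the other 2 were above background on no array. That probe gave 6.93, 6.60 and 7.16 on Control and 7.54, 6.70 and 6.83 on CKO. Array D was highest and B lowest, and the groups overlapped. The means were 6.90 ± 0.28 (SD, n = 3) and 7.02 ± 0.45 (SD, n = 3), a difference of 0.12 (SE 0.28, 95% confidence interval -0.55 to 0.79, adjusted p 0.977). The sign turned without B (-0.027) and without D (-0.14). Array E, with the highest Ihh, had the second lowest Nr2f2. As all 3 probes carry the same accession, the files do not say why they read so differently.

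Ptch1, Smo, Sufu and Nr2f2 were then set beside markers of stroma, the tissue from which the response is mainly known. Smo passes the signal on and Sufu restrains it, and neither is among its readouts. In bulk RNA, fewer cells of a type and less RNA per cell cannot be told apart. Of 15 stroma markers, 11 were measured, of which 9 were higher and 2 lower in CKO, with 0 past limma's test and a median difference of 0.77. Their summed signal, linear and with the added offset removed, ran from 3459 to 4540 in Control and from 3169 to 9985 in CKO. The defining markers Pdgfra, Pdgfrb and Twist2 were not measured by the same rule, and Postn was above background on no array. By mean deviation from Control, the markers lay at 1.26 on D and 1.32 on E but at -0.58 on F, while Control ranged from -0.12 to 0.23. CKO arrays therefore lay on both sides of Control. Only 6 of the 15 were above background on all 6 arrays. Col1a1, Col1a2 and Mmp2 were so on 3 and Col3a1 and Col6a2 on 4, so part of their values are background. The bright markers differed on E: Dcn read 10.73 against a Control mean of 11.02, and Fbln1 11.97 against 10.45. On array E the marker mean was high while Nr2f2 deviated by -0.20, and on D Nr2f2 deviated by 0.64.

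Relative to the stroma markers on the same array, Nr2f2 differed by -0.54 between the groups, with an exact permutation p of 0.5. Ptch1 differed by -0.62 (exact permutation p 0.5), Smo by -0.68 (exact permutation p 0.2) and Sufu by -0.77 (exact permutation p 0.4). The marker mean, 1.26 on D, 1.32 on E and -0.58 on F, is subtracted in these values. A gene that hardly moves must then come out low on D and E and higher on F. Arrays D and E lay below 0 for each of the 4, whereas F lay above both D and E. That order and the negative differences are thus largely built in and are no result about the 4 genes. How much stroma RNA enters the signals of these genes was not tested. For Nr2f2 the values were -0.62 on D, -1.53 on E and 0.51 on F, and Control ranged from -0.18 to 0.15. Ihh differed by 0.54 on this scale (exact permutation p 0.4), with -0.33 on D, 0.95 on E and 0.997 on F. Endothelium, which also makes Nr2f2, had 5 of 7 markers measured, with differences from 0.041 to 1.07 and 0 past the test. Only Egfl7 was above background on all 6 arrays. The mean deviation of the 5 was 1.58 on E, 0.38 on D and -0.32 on F, so CKO arrays did not move together. The summed signal of these markers was 265 to 286 in Control and 194 to 1006 in CKO, highest on E.

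**Figure D4:**
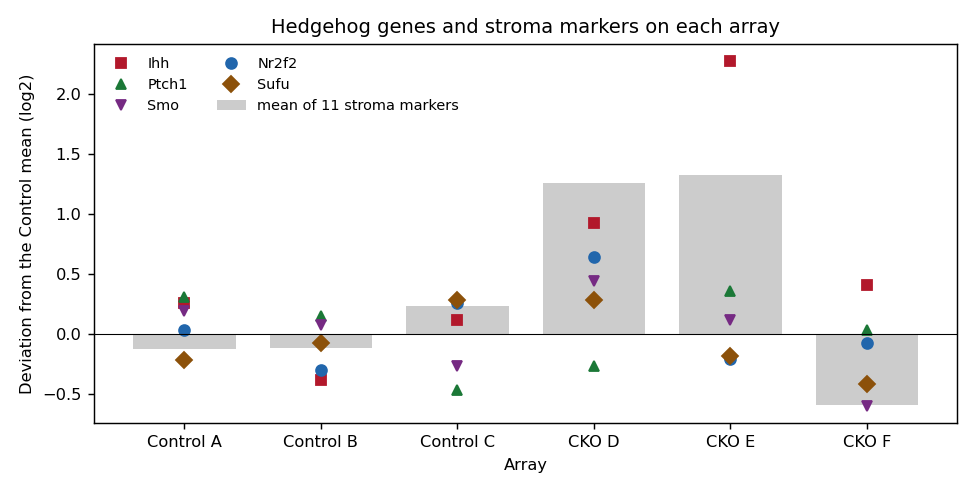
Deviation from the Control mean on the log2 scale (vertical axis) of the mean of 11 stroma markers (grey bars) and of 5 hedgehog genes (symbols) on each array (horizontal axis). The bars reach 1.26 on D and 1.32 on E while Ptch1, Smo, Sufu and Nr2f2 stay between -0.59 and 0.64 on all arrays.

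The wider pathway was read from lists of genes by role. Among 13 genes of ligand release and reception, 5 were measured, 2 higher and 3 lower, with 0 past the test and a median of -0.020. Cdon, a co-receptor, differed by -0.37 (SE 0.23) and Disp1, which releases the ligand from the cell, by 0.22 (SE 0.24). Gpc3, a glypican that competes for hedgehog, differed by -0.28 (SE 0.49) and Scube3, of a family that helps the ligand travel, by -0.020 (SE 0.16). The other ligands Shh and Dhh and the co-receptors Boc and Gas1 were not measured. Ihh was thus the hedgehog ligand measured here.

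Of 22 genes of intracellular transduction and the cilium, 16 were measured, 6 higher and 10 lower, with 0 past the test and a median of -0.044. Prkacb, a catalytic subunit of the kinase that primes GLI proteins for cleavage, gave 11.25, 11.09 and 11.46 on Control with 10.94 on D, 10.76 on F and E between D and the lowest Control. Its groups did not overlap, with a difference of -0.36 (SE 0.17, adjusted p 0.976). Tulp3, which carries receptors into the cilium, differed by -0.21 (SE 0.15), also with no overlap. Non-overlap was seen for 2 of the 16, against 5.01% of all genes with CKO below. Both were named for their small p, and with so few genes the share cannot be told from the background. Prkaca, the sister subunit, differed by -0.22 (SE 0.20), and the kinase gene Ulk3 by 0.14 (SE 0.16).

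Of 12 target genes, 6 were measured, 1 higher and 5 lower, with 0 past the test and a median of -0.24. Bcl2, an inhibitor of cell death, differed by -0.34 (SE 0.19) with CKO arrays below all Control arrays, though above background on only 4 of the 6. Named for its small p, it was the 1 gene of the 6 measured without overlap, against 5.01% of all genes with CKO below. The cyclin genes Ccnd1 and Ccnd2 differed by -0.46 (SE 0.51) and -0.54 (SE 0.59), and Snai1 by 0.19 (SE 0.30). Ccnd1 moved to -0.11 without B and -1.03 without A. Ccnd2, above background on 3 of the 6 arrays, moved to -0.22 without E and was -1.86 with the deposited values. Bcl2 was -0.17 without A. Several of these genes answer to many other signals. The forkhead genes Foxf1, Foxf2 and Foxl1, closer readouts in stroma, were not measured.

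Of 10 genes that act on Ihh in uterine epithelium, 9 were measured, 5 higher and 4 lower, with 0 past the test and a median of 0.034. Sox17, a transcription factor, gave 12.80, 13.07 and 12.97 on Control and 12.73, 12.32 and 12.70 on CKO. Its groups did not overlap, with a difference of -0.37 (SE 0.19, adjusted p 0.976), and it was lowest on E, where Ihh was highest. Without E the Sox17 difference was -0.22, and with the mean of its probes it was -0.20. Sox17, named for its small p, was the 1 of these 9 without overlap, against 5.01% of all genes with CKO below. Areg, a ligand of the EGF receptor, ran from 9.24 on A to 11.85 on C in Control, and read 11.13 on D and 12.35 on E, with F just under D. Its difference was 1.13 (SE 0.70), with overlap, and it moved to 0.57 without A and 1.87 without C. Ncoa2 and Fkbp4, partners of the progesterone receptor, differed by 0.60 (SE 0.35) and 0.29 (SE 0.19). The Ncoa2 value was 0.24 without D and 0.29 with the mean of its probes, and that of Fkbp4 was 0.18 without E. Pgr itself differed by -0.43 (SE 0.56), and was lowest on E at 6.78. Gata2, with the lowest difference of the list at -0.55 (SE 0.68), was also lowest on E, at 11.20. Egfr was lowest on E too, while Areg and Fkbp4 were highest there.

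Among relatives of COUP-TFII and stromal genes downstream of it, 3 of 10 listed were measured and 0 passed, with a median of -0.070. Nr2f6, a relative of Nr2f2, differed by -0.045 (SE 0.21), and the BMP receptor genes Bmpr2 and Acvr1 by -0.070 (SE 0.18) and -0.081 (SE 0.47). The stromal genes Bmp2, Wnt4, Hand2, Hoxa10 and Hoxa11 were not measured. Nr2f1 was not analysed here.

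**Figure D5:**
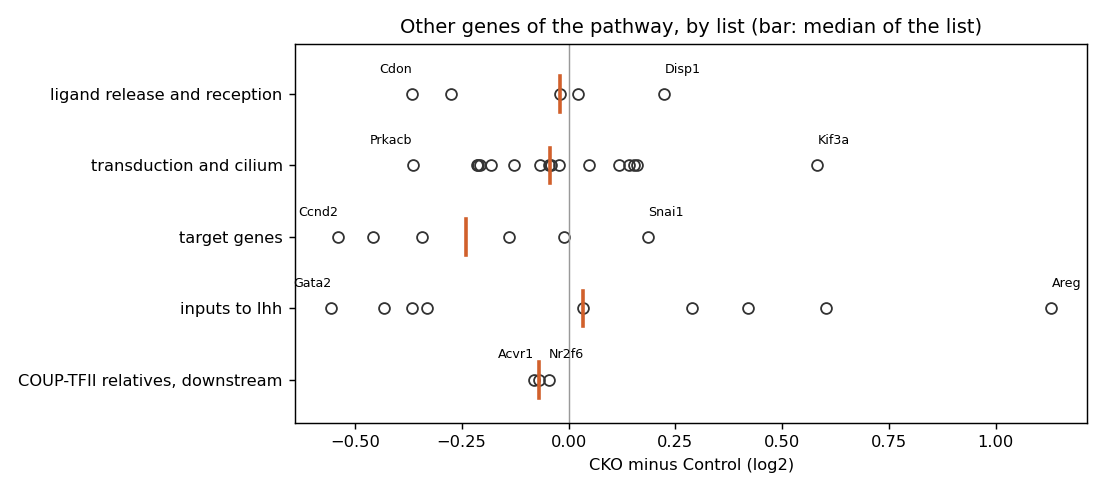
Difference of CKO minus Control on the log2 scale (horizontal axis) for the measured genes of each pathway list (rows); circles are genes, orange bars the median of the list, and the lowest and highest gene are named. The medians run from -0.24 for the target genes to 0.034 for the inputs to Ihh.

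Genes whose pattern over the 6 arrays was most like that of a member were looked up among about 2200 genes that varied (SD of at least 0.5 on the log2 scale). Those most like Ihh were Ctsk, Arc, Snhg17, Ddr1 and Bach2, with Pearson r of 0.97 to 0.99. Of these, Ctsk and Bach2 were above background on 0 Control and all 3 CKO arrays, so their Control values are background. Without E and B, the arrays farthest from the median of Ihh, r was 0.80 to 0.97. Those most like Nr2f2 were Msln, Ccl21a, Ccl21c, Fam180a and Cldn15, with r of 0.92 to 0.96. Without D alone r was 0.74 to 0.87. Without D and C it was 0.24 to 0.61, so much of that likeness rested on those arrays. Msln was in the mesothelium list, whose mean deviation was 1.54 on D and -1.03 to 0.44 on every other array. Array D was highest for Nr2f2 and for these genes, and the part of mesothelium in the Nr2f2 value was not tested. These values of r are given as a description.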

How the data were processed

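The authors deposited, per the file headers, a linear mean bead intensity for every probe of each array, with its standard error, its number of beads and its detection p-value. From the values, these intensities were not background-subtracted. The authors also deposited processed intensity values, which from their values were background-subtracted and quantile-normalised, every array having a median of 6.4. Which software made them, the sources used here do not say.

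Deposited raw intensities went through neqc (limma 3.58.1, R 4.3.3): normexp correction, with control signals inferred from detection p-values, then an offset of 16, quantile normalisation and log2. The offset shrinks differences of dim genes. Probes with detection p under 0.05 on at least 3 of 6 arrays were kept (17291), named through a RefSeq gene table where it held their accession, symbol or synonym, and the brightest stood for its gene. CKO was compared with Control across all genes with limma (lmFit, eBayes; two-sided; Benjamini-Hochberg adjusted p under 0.05). Adjusted p-values are from this fit. Each member's probes also had an exact permutation test.

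The members, lists and rules were chosen with earlier results of these data known. Named genes were all members, up to 4 genes of each list with the smallest p, the targeted gene, and the 5 genes most like Ihh and Nr2f2. Pgr, Gata2, Egfr, Lpar3 and the genes not above background were named after their values were seen. Another 2 probes matched Nr2f2 and Smo by accession or synonym but not by symbol and were left out; neither was above background. The steps were tested on simulated data. The 17 alternatives are other background corrections, normalisations, filters, probe rules and variance models, the deposited values, a stroma covariate and leaving out each array.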

Additional observations from a re-analysis of the deposited data

How the results depend on the processing

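No member passed the test under any of the 17 alternatives, in either direction. Of 25 genes followed, 15 kept their sign under all alternatives that gave them a value, and among the 5 tested members Ihh alone did. Genes higher in CKO over all genes, 2 with the main settings, were 1 with normexp without controls, no background correction, median scaling or cyclic loess. They were 0 with the deposited values (floored at 1), no filter, the strict filter or the stroma covariate, and 5 under array weights. Leaving out each array gave 0 to 1, and genes lower stayed at 0. Smo turned to 0.00071 with no background correction. Ptch1 turned to -0.034 with median scaling, which moved the median of all genes to -0.077, and to -0.061 with array weights. Snai1 turned to -0.16 with the deposited values and -0.015 with array weights, and Acvr1 to 0.0047 with the covariate. With single arrays left out, Ptch1 ran from -0.19 to 0.20, Smo from -0.24 to 0.28, Sufu from -0.30 to 0.052 and Nr2f2 from -0.14 to 0.29. Gpc3 ran from -0.76 to 0.27, Scube3 from -0.090 to 0.069, Bmpr2 from -0.16 to 0.045, Nr2f6 from -0.19 to 0.11 and Acvr1 from -0.57 to 0.28. Among genes that kept their sign, single arrays moved Areg from 0.57 to 1.87, Ncoa2 from 0.24 to 0.85, Ccnd1 from -1.03 to -0.11, Cdon from -0.51 to -0.16, Disp1 from 0.11 to 0.42, Bcl2 from -0.50 to -0.17, Prkaca from -0.33 to -0.052 and Ulk3 from 0.060 to 0.21. Except where settings test fewer samples or other genes, the cause was not tested. Gli1, Gli2, Gli3 and Hhip gave values with no filter alone (0.016, 0.12, 0.42 and 0.10), where signal over background limits them. No paired analysis was possible because the groups share no replicate letters.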
